A study of Mus musculus with 16 samples.

Results

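The comparison described here set mouse embryonic stem cells (ESCs) lacking both Dicer and Dnmt1 against wildtype ESCs, in 4 Dicer/Dnmt1 knockout (KO) libraries and 8 wildtype (WT) libraries of total RNA-seq, which is 12 of the 16 libraries of the series. All 26127 genes of the deposited table were considered, and the 12715 with a value above 0 log2 RPM (a gene's reads scaled to the library's total reads, on a log2 scale) in at least 4 of the 12 libraries were tested. The labels give every group the cell type ESC and the background strain E14, whereas the study's methods name a parental C57BL/6 line with loxP sites in both Dnmt1 alleles. In that line the Dicer gene was targeted by CRISPR and colonies were grown from single cells, and Dnmt1 was deleted by a Cre recombinase induced with tamoxifen (4OHT), in serum and LIF with or without feeder cells. The study made a line in which Dicer was deleted together with Dnmt1 and another in which Dicer was already lost before Dnmt1, and the labels do not say which of them these libraries come from. Nor do they say whether WT cells received 4OHT, how long after induction the cells were collected, how many clones each group holds, or whether libraries A and B of a number came from separate cultures. The p-values therefore measure the spread between these libraries, which may be technical. The 4 Dnmt1 KO libraries of the series, which also lack Dnmt1 and are labelled as controls for Dicer, are set beside some results as level ranges only.

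Dicer is the RNase III enzyme that cuts hairpin precursors into mature microRNAs (miRNAs) and double-stranded RNA into small interfering RNAs. A miRNA loaded into an Argonaute protein pairs through its seed, the bases near its 5′ end, with matching letters in the 3′ untranslated region (3′ UTR) of an mRNA, and lowers that mRNA's stability and translation. In ESCs most miRNA molecules belong to the miR-290 and miR-302 clusters and to the miR-17 to miR-92 family of clusters, which are known for speeding the G1 to S transition of the cell cycle. Dnmt1 is the maintenance DNA methyltransferase that copies CpG methylation to the new strand after replication, and DNA methylation keeps imprinted alleles, germline genes and many retroelements silent.

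The mature sequences that carry the seeds examined below are shown 5′ to 3′ as RefSeq (GRCm38.p6) holds them, with the seed, bases 2 to 8, in capitals. One or 2 members stand for each family, because members of a family share those letters.
miR-294-3p: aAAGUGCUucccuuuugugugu
miR-302b-3p: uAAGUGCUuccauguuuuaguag
miR-20a-5p: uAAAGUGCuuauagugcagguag
miR-92a-3p: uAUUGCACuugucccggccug
miR-130a-3p: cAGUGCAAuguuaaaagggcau
let-7a-5p: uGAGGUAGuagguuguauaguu
miR-294 and miR-302b share the seed AAGUGCU, whose target letters are AGCACTT. The seed of miR-20a, AAAGUGC, is the same run of letters moved by 1 base, with the target letters GCACTTT, so a site written AGCACTTT matches both families.

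Such matches stood in the 3′ UTRs (GENCODE annotation of NCBIM37) of genes whose transcripts are described below. The windows are printed on the gene's strand with the matched letters in capitals, and were chosen because these genes changed and hold a match. The first 4 belong to the cell cycle inhibitor Cdkn1a at chr17:29236765-29236788, the Nodal inhibitors Lefty1 at chr1:182868336-182868359 and Lefty2 at chr1:182828040-182828063, and the TGF-β type II receptor Tgfbr2 at chr9:115998990-115999013 on the minus strand.
Cdkn1a: acctgaatAGCACTTTggaaaaat
Lefty1: gtatgcgaAGCACTTacatgtata
Lefty2: ccagtttaAGCACTTacatgggta
Tgfbr2: atagcgttAGCACTTgacaatcag
The next 4 belong to the retinoblastoma-like protein Rbl2 at chr8:93647042-93647065, the methylcytosine dioxygenase Tet3 at chr6:83317829-83317852 on the minus strand, the methyl-CpG binding protein Zbtb38 at chr9:96584013-96584036 on the minus strand, and Argonaute 1 (Eif2c1) at chr4:126115765-126115788 on the minus strand.
Rbl2: aattggtgGCACTTTatggctgta
Tet3: tcttccccAGCACTTTgaagaaac
Zbtb38: tatactgtAGCACTTTgctgttaa
Eif2c1: tgacatttGCACTTTcagacgtga
A match is a description of the letters only, and no binding was measured.

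The libraries held 31.5 M to 52.5 M reads, of which 44.2% to 48.7% fell in genes. Of the reads that fell in genes, ribosomal protein genes took 5.82% ± 0.35 (SD, n = 4) in Dicer/Dnmt1 KO and 8.66% ± 1.58 (SD, n = 8) in WT, where WT 4A and 4B were highest at 10.7% and 11.2%. The rank correlation across genes between transcript length and a library's level relative to the mean of all 12 libraries was 0.31 to 0.36 in the KO libraries and -0.53 to 0.22 in WT. The groups did not overlap in either measure, and an exact two-sided permutation test over the 495 arrangements of the libraries gave p = 0.00404 for each, the smallest value possible. Defining ESC markers were expressed in every library of both groups, with Pou5f1 at 8.19, 8.24, 8.30 and 8.32 log2 RPM in Dicer/Dnmt1 KO and 8.08 to 8.79 in WT (median 8.45).

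The targeted genes were both reduced. Dnmt1 (ENSMUSG00000004099, chr9:20711650-20757317, minus strand) was at 4.49, 4.62, 4.53 and 4.64 log2 RPM in the 4 KO libraries (1A, 1B, 2A and 2B, in that order here and below) and at 5.55 to 7.66 in WT (median 7.48), and it fell by 2.49 ± 0.39 on the log2 scale (± SE, limma, Benjamini-Hochberg adjusted p = 9.33e-05). The lowest WT values were those of WT 4A and 4B, and the groups did not overlap. Dicer1 (chr12:105925952-105990162, minus strand) was at 3.92, 3.83, 3.68 and 4.06 in Dicer/Dnmt1 KO and 4.56 to 5.68 in WT (median 5.43), without overlap, and fell by 1.40 ± 0.19 (adjusted p = 2.49e-05). In the Dnmt1 KO libraries Dicer1 was at 5.28 to 5.68, within the WT range, while Dnmt1 was at 4.17 to 4.63. Reads were summed over whole genes, so transcript left outside the deleted exons is counted too.

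**Figure D1:**
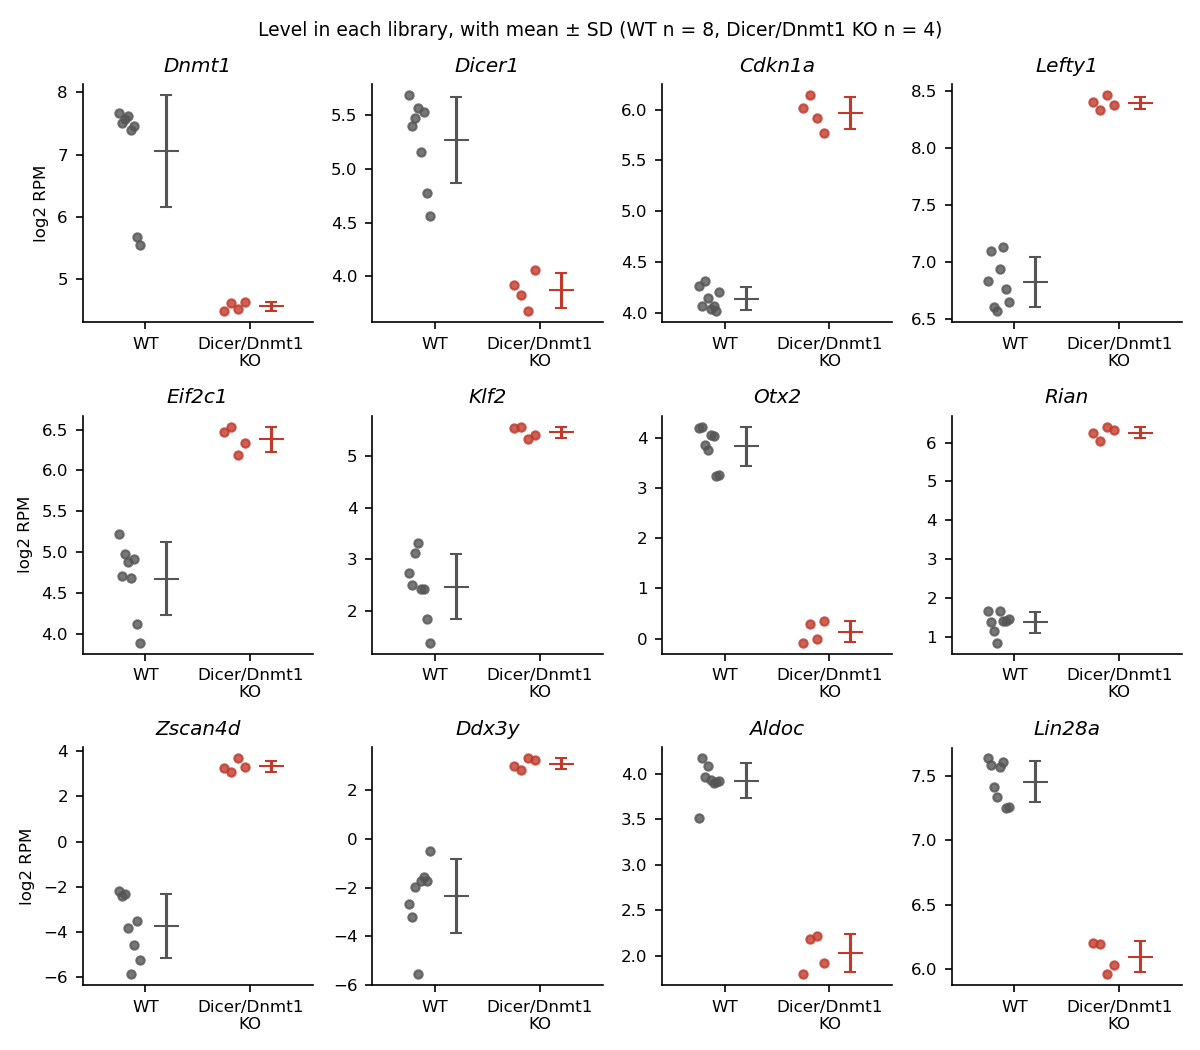
Log2 RPM of 12 genes in each library, 1 panel per gene, with 1 dot per library, and the mean ± SD of the 4 Dicer/Dnmt1 KO and the 8 WT libraries. The panels show the targeted genes Dnmt1 and Dicer1 lower in every KO library, Cdkn1a, Lefty1, Eif2c1, Klf2, Rian, Zscan4d and Ddx3y higher in every KO library, and Otx2, Aldoc and Lin28a lower in every KO library.

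Across the 12715 genes, 7623 differed between the groups at an adjusted p under 0.05 (limma). Of these, 3850 were higher in Dicer/Dnmt1 KO (30.3% of the genes tested) and 3773 were lower (29.7%). Most changes were small, with a median absolute change of 0.39 on the log2 scale, and a median signed change of 0.02. Upregulation was the commoner direction among larger changes, where 1149 genes (9.04%) were at least 2-fold higher and 423 (3.33%) at least 2-fold lower. At least 4-fold differences were found for 246 higher and 46 lower genes. Every KO library lay above every WT library for 2842 genes (22.4%) and below every WT library for 2426 genes (19.1%). With libraries A and B of each number averaged, which leaves 2 values against 4, 4540 genes remained changed by the same test. Of the 1149 genes at least 2-fold higher, 322 were above 0 in fewer than 4 WT libraries. They needed the KO libraries to pass the filter, described below as passing through the KO libraries alone. Of all 457 tested genes of that kind, 374 were higher. Of the 423 lower genes, 113 had no KO library above 0, described below as passing through WT libraries alone. Lower genes with some but fewer than 4 KO libraries above 0 are not in that count, although they also relied on WT values, which limits their tests.

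**Figure D2:**
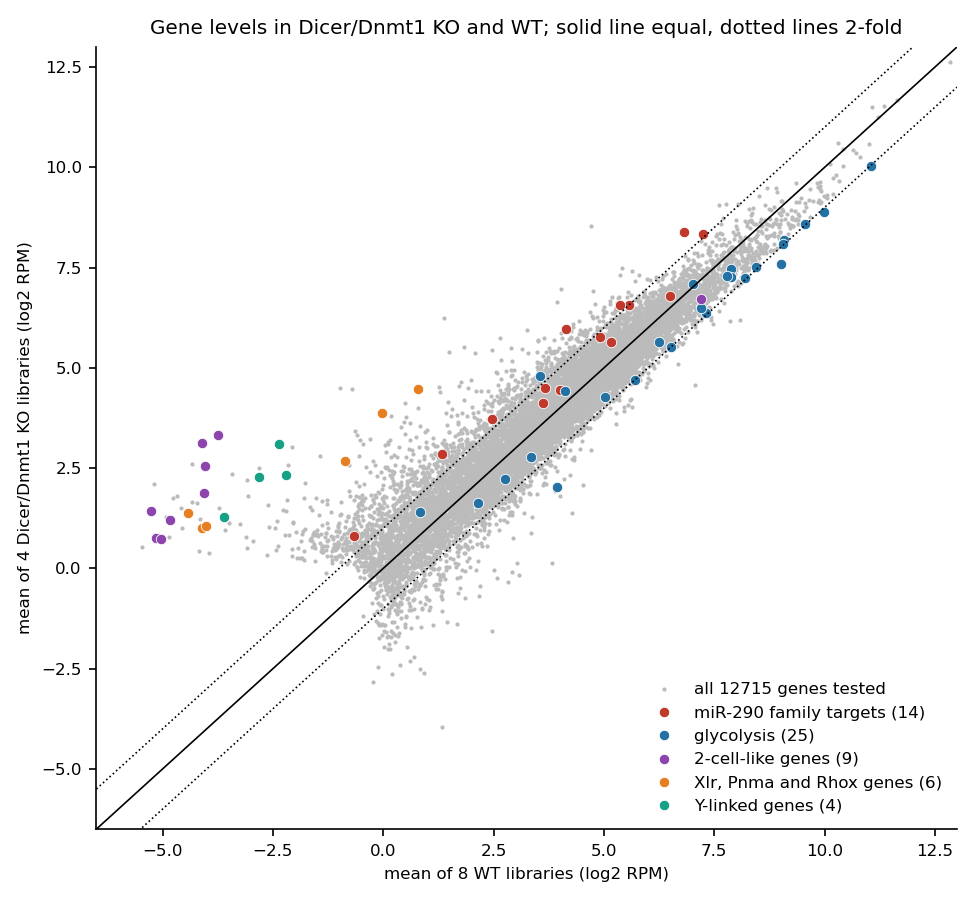
Mean log2 RPM of 8 WT libraries (horizontal axis) against mean log2 RPM of 4 Dicer/Dnmt1 KO libraries (vertical axis) for 12715 genes, with the members of 5 gene lists coloured. The 14 miR-290 family targets lie above the diagonal, 21 of the 25 glycolysis genes lie below it, and most 2-cell-like, X-linked and Y-linked genes lie far above it at low WT levels.

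The 10 genes chosen as the largest rises were mostly members of repeated families with almost no reads in WT. They were Zscan4f, Zscan4d, Zscan4e, Zscan4c, Zscan4b and Zscan4-ps2 of the Zscan4 cluster, the deubiquitinase genes Dub1a, Dub1 and Usp17l5, and the X-linked RNA export factor Nxf3. Zscan4d, a zinc finger gene of the 2-cell embryo, had 265 to 490 reads in the KO libraries and 0 to 8 in WT. Nxf3 (chrX:132606638-132619794) had 61 to 99 reads in Dicer/Dnmt1 KO and 0 to 7 in WT. The fitted changes of these 10 genes, from 5.93 to 7.30, depend on the value written for 0 reads, and reads within the Zscan4 and Dub families cannot be assigned to 1 copy with certainty.

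The 10 largest falls were Spon1, Enpp2, Otx2, Crym, Ltb, Padi3, Sycp3, Fndc3c1, Mcoln3 and Slc39a8. Spon1, which encodes the extracellular matrix protein F-spondin, kept 1 to 4 reads in the KO libraries against 59 to 171 in WT, and had 19 to 35 reads in Dnmt1 KO. Enpp2, the lysophosphatidic acid producing enzyme autotaxin, was at -0.75, -2.18, -1.80 and -1.52 log2 RPM in the KO libraries and 1.37 to 3.44 in WT (median 2.39), a difference of -4.02. Crym, the thyroid hormone binding protein mu-crystallin, fell by 3.26 ± 0.20 (adjusted p = 2.84e-08), and Padi3, a peptidylarginine deiminase, differed by -3.06. Spon1, Enpp2 and Padi3 passed the filter through WT libraries alone, so no test is given for them. Otx2 and Sycp3, which relied on their WT values to pass, are also given without a test below. The lack of overlap between the groups was part of how all 10 were chosen.

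Changes varied with transcript length. Of 747 tested genes with transcripts under 1 kb, 9.24% were higher in Dicer/Dnmt1 KO and 60.6% lower, with a median change of -0.48. The shares moved in the opposite direction with length, to 42.9% higher and 16.4% lower among 3662 genes of 4 to 8 kb (median 0.23), and to 56.9% higher and 6.78% lower among 605 genes over 8 kb (median 0.48). The length trend within single libraries given above separates the groups in the same way, and its part in these shares was not tested. For this reason a change recomputed after removing a smooth trend with length from each library is given below where it turns a direction or moves a value by over 1.5 times.

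Among the 21 genes of the miRNA and RNA interference pathway, 7 were higher and 5 lower, shares close to those of all genes, and the median change was 0.17. The changes were divided by role. Of the 4 Argonaute proteins, which hold the guide RNA, 3 were higher, and so were 4 of the 6 silencing effectors that act with them. None of the nuclear and cytoplasmic processing factors was higher. Eif2c1 (Argonaute 1) was at 6.47, 6.53, 6.19 and 6.33 log2 RPM in Dicer/Dnmt1 KO, 3.89 to 5.22 in WT (median 4.79) and at 4.62 to 5.14 in Dnmt1 KO, a rise of 1.71 ± 0.20 (3.27-fold, adjusted p = 9.43e-06). The GW182 scaffold genes Tnrc6a and Tnrc6b, which link Argonaute to deadenylation, rose by 1.31 ± 0.17 (adjusted p = 2.19e-05) and 1.43 ± 0.23 (adjusted p = 0.000112). The helicase gene Mov10 rose by 1.34 ± 0.21 (adjusted p = 0.000112). In all 4 of these genes every KO library was above every WT library, which was so for 22.4% of all genes. The rise of Tnrc6b came to 0.73 with the length trend removed.

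Lin28a, which binds let-7 precursors and blocks their processing, changed in the opposite direction, at 6.20, 6.20, 5.96 and 6.03 in Dicer/Dnmt1 KO, 7.25 to 7.64 in WT (median 7.49) and 7.24 to 7.30 in Dnmt1 KO. It fell by 1.37 ± 0.09 (adjusted p = 5.84e-08) without overlap. Prkra, a partner of Dicer, fell by 0.80 ± 0.13 (adjusted p = 0.000151), and Ran, the GTPase that carries precursors out of the nucleus with exportin 5, fell by 0.68 ± 0.15 (adjusted p = 0.00123). Eif2c2 (Argonaute 2, 0.78), Tnrc6c (0.55) and the exportin Xpo5 (-0.14) passed the test over the 12 libraries but not with A and B averaged (adjusted p = 0.148, 0.125 and 0.321). Eif2c3 rose by 0.59 ± 0.14 (adjusted p = 0.0019), and with the length trend removed its change was -0.08, and those of Tnrc6c, Eif2c2 and Xpo5 were -0.01, 0.36 and -0.23. Changes in the members that did not pass were 0.37 for Drosha and 0.18 for Dgcr8, the pair of subunits of the nuclear Microprocessor, -0.26 for Tarbp2, 0.15 for Eif2c4, 0.05 for Cnot1, 0.23 for Ddx6, 0.17 for Lin28b, 0.06 for Trim71 and -0.07 for Dis3l2.

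Of 17 genes of the DNA methylation machinery, 6 were higher and 3 lower, beside 30.3% and 29.7% of all genes, with a median of 0.08. Apart from Dnmt1, no writer changed by 2-fold, and the larger rises were in an eraser and a reader. Tet3, which oxidises 5-methylcytosine, was at 4.34, 4.51, 3.72 and 3.95 in Dicer/Dnmt1 KO and 1.20 to 3.33 in WT (median 2.68), and rose by 1.66 ± 0.34 (adjusted p = 0.000751). Zbtb38, which binds methylated CpGs and represses transcription, was at 5.66, 5.70, 5.76 and 5.75 in Dicer/Dnmt1 KO, 4.19 to 4.63 in WT (median 4.38) and 4.08 to 4.40 in Dnmt1 KO, a rise of 1.35 ± 0.09 (adjusted p = 3.61e-08). The 4 KO values of Zbtb38 lay above every WT and Dnmt1 KO library. The methyl-CpG binding protein Mbd2 rose by 0.52 ± 0.07 (adjusted p = 2.98e-05). Tdg, the glycosylase that excises oxidised methylcytosine, fell by 0.46 ± 0.09 (adjusted p = 0.000483).

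The remaining methylation genes gave weaker or no calls. Dnmt3a (0.39), Tet1 (0.52) and Uhrf2 (-0.24) passed over 12 libraries but not with A and B averaged (adjusted p = 0.0692, 0.159 and 0.112), and with the length trend removed the changes of Dnmt3a and Tet1 were -0.11 and -0.12. The changes of the members that did not pass were 0.05 for Uhrf1, which guides Dnmt1 to hemimethylated DNA, -0.31 for the de novo methyltransferase Dnmt3b, -0.18 for its cofactor Dnmt3l, 0.12 for Tet2, 0.10 for Mbd1, 0.01 for Mbd3, 0.00 for Mbd4 and 0.08 for Zbtb33.

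All 14 genes listed as known targets of the miR-290 family were higher in Dicer/Dnmt1 KO, against 30.3% of all genes, with a median change of 1.05, and 7 of them were at least 2-fold higher. In 13 of the 14, Dkk1 excepted, every KO library lay above every WT library, against 22.4% of all genes. The summed level of the 14 genes was 1170 to 1244 RPM in Dicer/Dnmt1 KO, 539 to 645 RPM in WT and 640 to 728 RPM in Dnmt1 KO. Cdkn1a (p21), an inhibitor of G1 cyclin-dependent kinases, was at 6.02, 6.14, 5.92 and 5.77 log2 RPM in the KO libraries, 4.01 to 4.31 in WT (median 4.11) and 4.76 to 4.92 in Dnmt1 KO, a rise of 1.82 ± 0.08 (3.54-fold, adjusted p = 2.46e-09). Its 3′ UTR holds 2 AGCACTT matches, of which the window printed above also matches the miR-17 seed.

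The Nodal inhibitors Lefty1 and Lefty2 and the receptor Tgfbr2 were also higher. Lefty1 was at 8.41, 8.33, 8.46 and 8.38 in Dicer/Dnmt1 KO, 6.57 to 7.13 in WT (median 6.80) and 6.79 to 7.21 in Dnmt1 KO, and rose by 1.57 ± 0.11 (adjusted p = 6.11e-08). Lefty2 was at 8.39, 8.45, 8.30 and 8.20 in Dicer/Dnmt1 KO, 6.98 to 7.51 in WT (median 7.24) and 7.45 to 7.81 in Dnmt1 KO, and rose by 1.10 ± 0.09 (adjusted p = 4.73e-07). Tgfbr2 was at 3.11, 3.11, 2.70 and 2.50 in Dicer/Dnmt1 KO, 1.13 to 1.50 in WT (median 1.33) and 2.005 to 2.62 in Dnmt1 KO, and rose by 1.53 ± 0.13 (adjusted p = 4.14e-07). Each of these genes has at least 1 AGCACTT match, and the Dicer/Dnmt1 KO and WT groups overlapped for none of them. The Dnmt1 KO range overlapped that of WT for Lefty1 and Lefty2, and that of Dicer/Dnmt1 KO for Tgfbr2.

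Rbl2, a pocket protein that represses E2F target genes and is known as a link between the miR-290 cluster and the de novo methyltransferases, was at 3.61, 3.63, 3.80 and 3.87 in Dicer/Dnmt1 KO and 2.09 to 2.74 in WT (median 2.50), a rise of 1.27 ± 0.13 (adjusted p = 1.95e-06). Lats2, a kinase of the Hippo pathway, was at 4.48, 4.43, 4.47 and 4.58 in Dicer/Dnmt1 KO and 3.31 to 4.01 in WT (median 3.68), a rise of 0.82 ± 0.11 (adjusted p = 3.6e-05). Fndc3a rose by 1.21 ± 0.13 (adjusted p = 3.04e-06), Ei24 by 1.000 ± 0.07 (adjusted p = 9.61e-08) and the kinase gene Akt1 by 0.86 ± 0.11 (adjusted p = 1.23e-05). Smaller rises were found for Arid4b (0.49), Casp2 (0.44) and Rock2 (0.28), of which Arid4b and Rock2 did not pass with A and B averaged (adjusted p = 0.0544 and 0.106), and with the length trend removed Rock2 came to -0.15 and Arid4b to 0.19. Dkk1, a Wnt inhibitor with no AGCACTT or GCACTTT match, varied from 6 to 71 reads in WT, overlapped with the KO libraries, and lost its call with A and B averaged (adjusted p = 0.116).

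The same seed letters were then counted in the 3′ UTRs of all 12185 tested genes with one (95.8% of those tested), of which 30.4% were higher and 29.8% lower. AGCACTT stood in 16.1% of these 3′ UTRs, GCACTTT in 13.9%, GTGCAAT (miR-25 and miR-92) in 7.12% and TTGCACT (miR-130) in 11.3%, on the gene's strand, with the first pair of motifs overlapping by 6 letters. The share of genes higher in Dicer/Dnmt1 KO rose with the number of AGCACTT matches, from 27.5% of 10218 genes without a match to 43.8% of 1645 genes with 1 match and 53.7% of 322 genes with 2 or more. The share of lower genes went from 32.2% to 18.5% and 12.1%, and the median change from -0.03 to 0.22 and 0.37. For GCACTTT the share of higher genes went from 27.4% to 46.5% and 62.9%, with medians of -0.03, 0.26 and 0.47. With the length trend removed, the medians for 0, 1 and 2 or more matches came to -0.031, 0.069 and 0.066 for AGCACTT, with no further rise from 1 match to 2 or more, and to -0.034, 0.096 and 0.16 for GCACTTT.

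**Figure D3:**
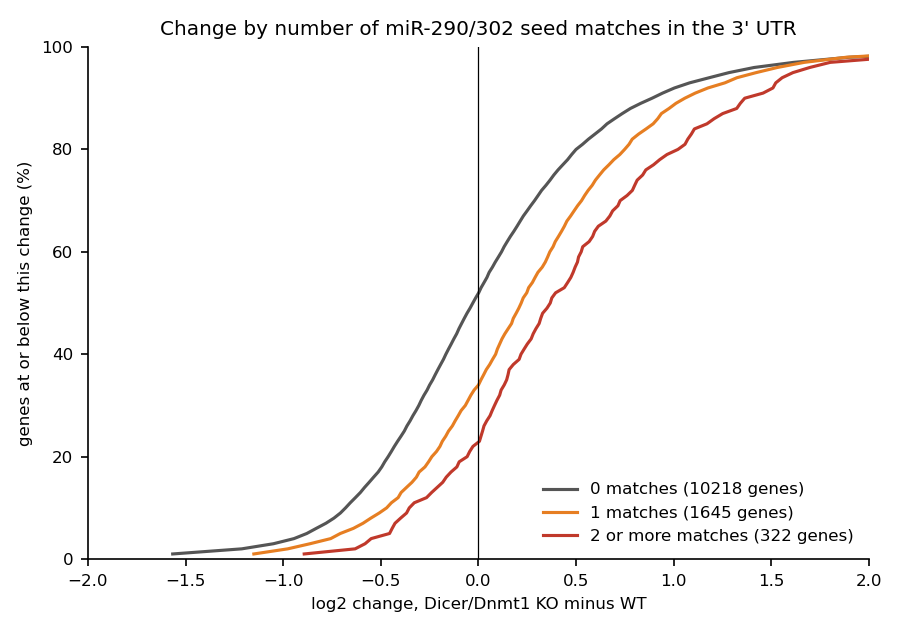
Cumulative percent of tested genes (vertical axis) by log2 change in Dicer/Dnmt1 KO against WT (horizontal axis), for genes with 0, 1 and 2 or more AGCACTT matches to the miR-290 and miR-302 seed in the 3′ UTR. The curves move to the right with the number of matches, with medians of -0.03, 0.22 and 0.37, and with the length trend removed (not drawn) the medians were -0.031, 0.069 and 0.066.

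The other seed families gave differences of unequal size. With GTGCAAT, 28.9% of genes without a match, 47.9% with 1 and 66.7% of 78 genes with 2 or more were higher, and with TTGCACT the shares were 28.8%, 40.8% and 57.3%. Among genes with at least 1 match, 36.9% were higher for TGCTGCT (miR-15 and miR-16, in 23.5% of 3′ UTRs), 39.0% for TACTTGA (miR-26, 10.7%) and 39.5% for ATAAGCT (miR-21, 6.89%). For seeds of miRNAs that ESCs hold low or lack, the shares were 37.1% for CTACCTC (let-7, 9.98%), 40.0% for ACCAAAG (miR-9, 13.1%) and 39.7% for ACACTAC (miR-142a, 6.48%). The shares of genes with a match were above that of all genes for each family, including the last 3 seeds.

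Genes with matches have long 3′ UTRs, with medians of 915, 2130 and 3358 bases for 0, 1 and 2 or more AGCACTT matches, and longer transcripts were higher in the KO libraries as described above. The families were therefore compared within 4 bins of 3′ UTR length that hold equal numbers of genes. From the bin of shortest to the bin of longest 3′ UTRs, the median change of genes with AGCACTT exceeded that of genes without it by 0.24, 0.16, 0.17 and 0.13. The differences were 0.38, 0.31, 0.23 and 0.17 for GCACTTT, and 0.35, 0.21, 0.23 and 0.18 for GTGCAAT, while they were 0.03, 0.01, 0.01 and 0.03 for TGCTGCT. Over the bins the differences ranged from -0.13 to 0.04 for ATAAGCT, from -0.03 to 0.07 for TACTTGA, from 0.07 to 0.18 for TTGCACT, from -0.03 to 0.14 for ACCAAAG and from -0.01 to 0.11 for ACACTAC. For CTACCTC they ranged from -0.0033 to 0.15, and the highest value, in the second bin, was close to the 0.16 of AGCACTT there. The highest value of ACCAAAG, 0.136 in the bin of longest 3′ UTRs, was above the 0.125 of AGCACTT in that bin. In the bin of shortest 3′ UTRs 73 genes held AGCACTT. With the trend over transcript length removed, the difference for all genes came to 0.10 for AGCACTT (0.27 before), 0.14 for GCACTTT (0.33), 0.12 for GTGCAAT (0.31) and 0.07 for TTGCACT (0.24).

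**Figure D4:**
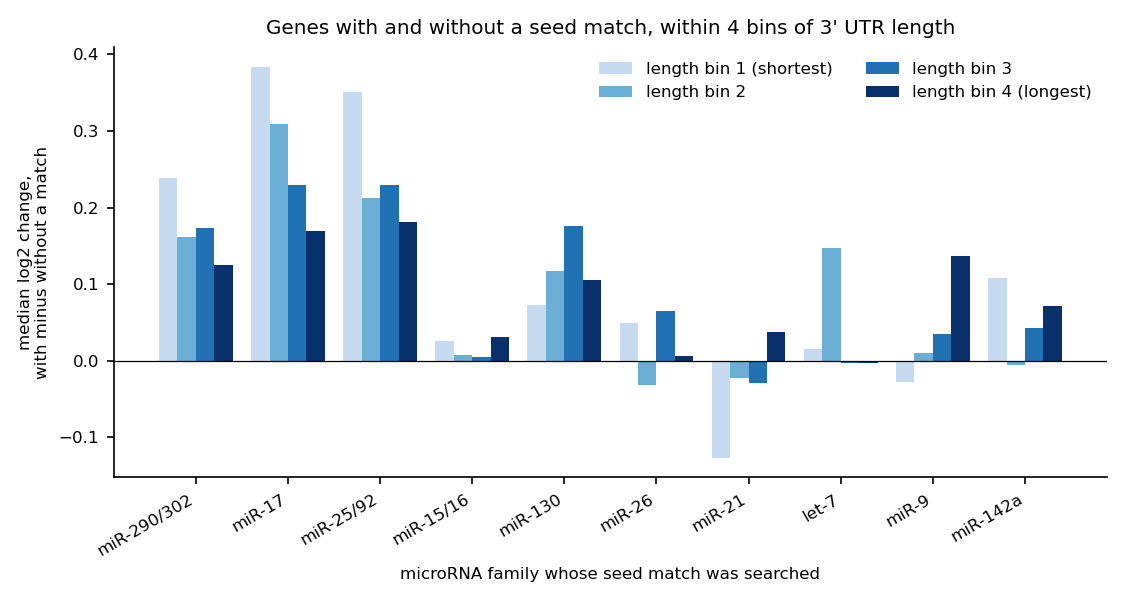
Difference in median log2 change between genes with and without a seed match in the 3′ UTR (vertical axis), for 10 miRNA seed families (horizontal axis) in 4 bins of 3′ UTR length (bars, shortest to longest). The bars of the miR-290, miR-17 and miR-92 seeds stand between 0.13 and 0.38 in every bin, and those of the miR-16 seed between 0.01 and 0.03. The miR-9 seed reaches 0.136 in the bin of longest 3′ UTRs, above the 0.125 of the miR-290 seed there. The let-7 seed reaches 0.15 in the second bin.

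The share of higher genes also rose with the number of families matched. Of 8219 genes with none of these 4 ESC seed motifs (miR-290, miR-17, miR-92 and miR-130), 24.5% were higher (median -0.08), and of 363 genes with 3 or 4 of them, 60.9% were higher (median 0.46). The 914 genes with both AGCACTT and GCACTTT had a median change of 0.35 and 53.3% were higher, against medians of 0.10 for 806 genes with AGCACTT alone and 0.19 for 490 genes with GCACTTT alone. The 3′ UTRs of these sets differ in length, with medians of 737 bases for genes with none of the motifs and 3670 bases for those with 3 or 4. With the length trend removed, the medians fell to 0.18 for genes with 3 or 4 motifs, 0.12 for both AGCACTT and GCACTTT, 0.012 for AGCACTT alone and 0.077 for GCACTTT alone, against -0.047 for genes with none. These are descriptions across genes of the same libraries, and genes are not independent replicates. The 24-base window around 1 match in Tgfbr2 is identical to that around a match in Cdk4, which changed by -0.18 (adjusted p = 0.07).

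Among 15 let-7 targets, 7 were higher and 2 lower, beside 30.3% and 29.7% of all genes (median 0.38). The D cyclin genes Ccnd2 and Ccnd1, which start G1 progression, rose by 1.80 ± 0.24 (adjusted p = 2.59e-05) and 1.20 ± 0.09 (adjusted p = 1.09e-07). The zinc finger gene Plagl2 rose by 1.65 ± 0.26 (adjusted p = 0.000103) and the chromatin protein gene Hmga2 by 0.97 ± 0.15 (adjusted p = 0.000108), while the GTPase gene Nras fell by 0.96 ± 0.09 (adjusted p = 9.21e-07). The 4 rising genes also hold an AGCACTT or GCACTTT match, as does Nras.

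Of 20 tested regulators of the G1 to S transition, 13 were higher and 3 lower, beside 30.3% and 29.7% of all genes (median 0.43). The rise was in the inhibitors, where 7 of 8 were higher and 1 lower, as well as in activators, where 6 of 12 were higher and 2 lower. Cdkn1c (p57), an imprinted inhibitor of cyclin-dependent kinases, was at 4.83, 4.59, 4.64 and 4.67 in Dicer/Dnmt1 KO, 2.58 to 3.58 in WT (median 3.19) and 4.60 to 4.86 in Dnmt1 KO, and rose by 1.45 ± 0.16 (adjusted p = 4.2e-06). The ranges of the Dicer/Dnmt1 KO and Dnmt1 KO libraries overlapped, and both lay above WT. Cdkn2a, which encodes p16 and p19Arf, rose by 1.31 ± 0.21 (adjusted p = 0.000123) and Rb1, the retinoblastoma protein, by 0.96 ± 0.16 (adjusted p = 0.000149). Cdkn1b (p27) fell by 0.36 ± 0.08 (adjusted p = 0.00165, and 0.0592 with A and B averaged), with a change of -0.54 once the length trend was removed. Among activators, Ccne2 rose by 0.98 ± 0.12 (adjusted p = 1.55e-05) and Ccna2 fell by 0.74 ± 0.07 (adjusted p = 5.78e-07).

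Of 22 pluripotency genes, 6 were higher and 4 lower (median -0.02), beside 30.3% and 29.7% of all genes. Among the 8 core members 1 was higher and 3 lower, Lin28a, described above, showing the largest change of them. Pou5f1 (-0.19 ± 0.13, adjusted p = 0.224), Sox2 (-0.10 ± 0.09, adjusted p = 0.377) and Nanog (0.09 ± 0.09, adjusted p = 0.409), the transcription factors at the centre of the ESC network, did not pass the test. Klf2, a Krüppel-like factor of the naive state, was at 5.54, 5.55, 5.33 and 5.40 in Dicer/Dnmt1 KO, 1.39 to 3.32 in WT (median 2.47) and 2.98 to 3.17 in Dnmt1 KO, a rise of 2.98 ± 0.28 (7.89-fold, adjusted p = 9.77e-07). Prdm14, which represses the de novo methyltransferases and differentiation genes, was at 4.25, 4.31, 4.13 and 4.32 in Dicer/Dnmt1 KO and 2.38 to 3.55 in WT (median 2.98), and rose by 1.33 ± 0.19 (adjusted p = 4.21e-05). Both lay above every WT and Dnmt1 KO library. Tcl1 and the Nodal co-receptor gene Tdgf1 fell by 1.03 ± 0.15 (adjusted p = 6.63e-05) and 0.96 ± 0.18 (adjusted p = 0.000493).

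Of 17 tested genes of the formative and primed states, 4 were higher and 5 lower, beside 30.3% and 29.7% of all genes (median -0.20). Otx2, the homeobox gene that drives the exit from naive pluripotency, was at -0.08, 0.29, -0.01 and 0.35 in the KO libraries. It was at 3.23 to 4.22 in WT (median 3.95) and 1.30 to 1.79 in Dnmt1 KO. The difference between Dicer/Dnmt1 KO and WT was -3.69. Fewer than 4 KO libraries were above 0, so Otx2 relied on its WT values to pass the filter, and no test is given. The order WT, Dnmt1 KO, Dicer/Dnmt1 KO held without overlap, which for WT and Dicer/Dnmt1 KO was part of how Otx2 was chosen. Fgf5, a growth factor of the primed epiblast, was at -0.51, -0.41, -0.80 and -0.73 in Dicer/Dnmt1 KO and 0.66 to 2.91 in WT (median 1.76), a difference of -2.31, and is given without a test since it passed the filter through WT libraries alone. Pou3f1 (Oct6), a POU factor of the epiblast, was at 2.08, 2.58, 2.29 and 2.15 in Dicer/Dnmt1 KO, 3.01 to 4.35 in WT (median 3.70) and 3.71 to 4.02 in Dnmt1 KO, and fell by 1.39 ± 0.20 (adjusted p = 5.31e-05). The feedback phosphatase gene Dusp6, a readout of ERK signalling, fell by 0.95 ± 0.07 (adjusted p = 8.76e-08).

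Of 32 genes of Nodal and TGF-β signalling, 17 were higher and 3 lower, beside 30.3% and 29.7% of all genes (median 0.58). The genes listed as inhibitors held 4 of the 6 rises of at least 2-fold, and 6 of these 8 genes were higher and none lower. Besides Lefty1 and Lefty2 these rises included Smad6, an inhibitory Smad, which rose by 1.34 ± 0.13 (adjusted p = 1.33e-06). Ltbp1, which was listed with the inhibitors and holds latent TGF-β in the matrix, rose by 1.003 ± 0.14 (adjusted p = 3.64e-05). Of the 10 ligands and convertases 5 were higher and 1 lower, with Gdf1 rising by 1.49 ± 0.20 (adjusted p = 2.35e-05) and Bmp4 falling by 0.86 (adjusted p = 0.00377). Nodal itself changed by -0.01 ± 0.08 (adjusted p = 0.926). Of 8 receptors and co-receptors 4 were higher and 1 lower, with the type I receptor gene Tgfbr1 rising by 0.76 ± 0.07 (adjusted p = 1.12e-06) beside Tgfbr2. With the length trend removed the changes of Ltbp1 and Tgfbr1 were 0.65 and 0.47. Of the 6 effectors, the Smads and their partners, 2 were higher and 1 lower.

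**Figure D5:**
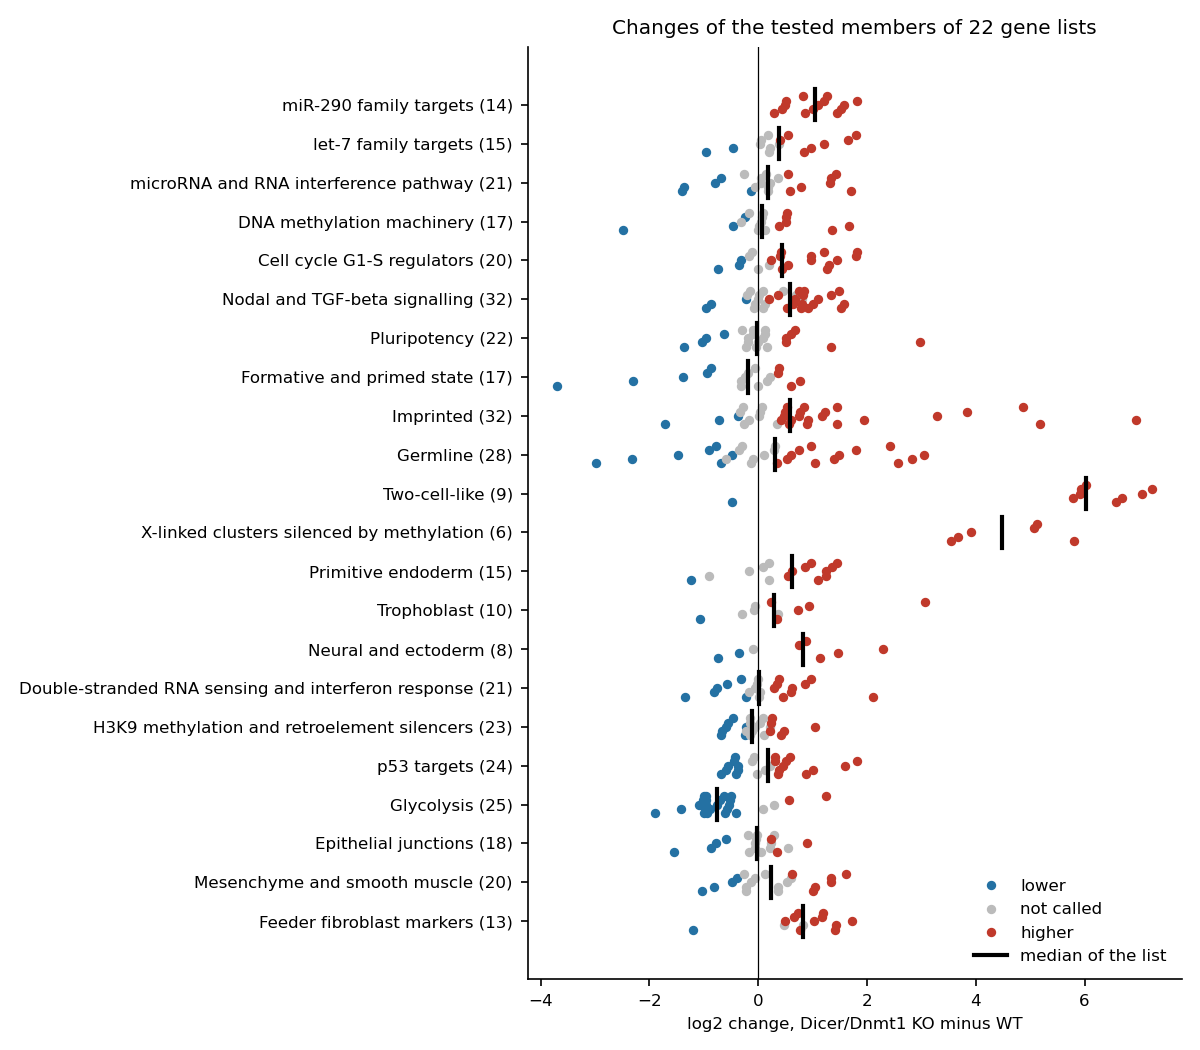
Log2 change in Dicer/Dnmt1 KO against WT (horizontal axis) for the tested members of 22 gene lists (vertical axis), 1 dot per gene, with a line at each list's median. The miR-290 family targets lie above 0 without exception (median 1.05), and 21 of 25 glycolysis genes lie below 0 (median -0.75). The median change of all genes was 0.02.

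Of 32 tested imprinted genes, 21 were higher and 3 lower, beside 30.3% and 29.7% of all genes (median 0.59). However, 3 of the 32 passed the filter through the KO libraries alone. The summed level of the listed imprinted genes was 2312 to 2494 RPM in Dicer/Dnmt1 KO, 1124 to 1735 RPM in WT and 2307 to 2752 RPM in Dnmt1 KO. The maternally expressed noncoding RNAs of the Dlk1-Dio3 domain on chromosome 12 showed the largest differences. Rian (chr12:110842155-110899919) was at 6.25, 6.05, 6.39 and 6.33 log2 RPM in Dicer/Dnmt1 KO, 0.86 to 1.67 in WT (median 1.41) and 6.31 to 6.45 in Dnmt1 KO, a rise of 4.88 ± 0.14 (29.4-fold, adjusted p = 1.52e-11). Meg3 was at 4.43, 4.36, 4.58 and 4.50 in Dicer/Dnmt1 KO and -1.62 to 0.45 in WT (median -0.76), a difference of 5.17. Mirg, a host transcript of miRNAs of that domain, had 170 to 274 reads in the KO libraries, 0 to 7 in WT and 161 to 284 in Dnmt1 KO. Meg3 and Mirg passed the filter through the KO libraries alone, so no test is given for them.

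H19, a noncoding RNA normally made from the unmethylated maternal allele, was at 8.61, 8.47, 8.56 and 8.53 in Dicer/Dnmt1 KO, 3.11 to 6.001 in WT (median 4.88) and 7.90 to 8.09 in Dnmt1 KO, and rose by 3.84 ± 0.52 (adjusted p = 2.73e-05). Plagl1, a paternally expressed zinc finger gene, was at 5.43, 5.54, 5.24 and 5.31 in Dicer/Dnmt1 KO, 1.36 to 2.92 in WT (median 2.11) and 3.81 to 4.54 in Dnmt1 KO, and rose by 3.30 ± 0.25 (adjusted p = 1.9e-07). The Dicer/Dnmt1 KO libraries lay above the Dnmt1 KO libraries in both genes, a difference that was not tested. Grb10, an adaptor that restrains growth signalling, fell instead, from 7.66 to 8.07 in WT (median 7.86) to 6.17, 6.32, 6.07 and 6.07 in Dicer/Dnmt1 KO, by 1.70 ± 0.09 (adjusted p = 6.53e-09). Smaller rises included Peg10 (1.45 ± 0.20, adjusted p = 3.91e-05), Igf2 (1.23 ± 0.23, adjusted p = 0.000366) and Impact (1.17 ± 0.10, adjusted p = 5.35e-07).

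Of 28 tested germline genes, 13 were higher and 7 lower, beside 30.3% and 29.7% of all genes. Of the 28, 2 passed the filter through the KO libraries alone and 1 through WT libraries alone. Among the meiosis genes 8 of 15 were higher and 2 lower, and among the genome defence genes, which act in the piRNA pathway and in transposon silencing, 5 of 13 moved each way. Hormad1, a protein of the meiotic chromosome axis, was at 4.33, 4.47, 4.63 and 4.78 in Dicer/Dnmt1 KO, 1.25 to 2.37 in WT (median 1.62) and 4.005 to 4.14 in Dnmt1 KO, a rise of 2.83 ± 0.18 (adjusted p = 2.82e-08). Stra8, a gatekeeper of meiotic entry, was at 2.55, 2.56, 3.20 and 2.96 in Dicer/Dnmt1 KO and -1.12 to 1.63 in WT (median 0.30), and rose by 2.57 ± 0.45 (adjusted p = 0.000263). The meiotic cohesin gene Smc1b rose by 2.43 ± 0.14 (adjusted p = 1.4e-08) and the RNA-binding protein gene Dazl by 1.39 ± 0.26 (adjusted p = 0.000469).

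Sycp3, a component of the synaptonemal complex, went the other way. It was at -0.57, 0.01, -0.30 and 0.55 in Dicer/Dnmt1 KO, 2.46 to 3.22 in WT (median 2.88) and 0.62 to 1.50 in Dnmt1 KO. The difference between Dicer/Dnmt1 KO and WT was -2.99. Some KO libraries were below 0, so Sycp3 relied on its WT values to pass the filter, and no test is given. The Tudor domain gene Tdrd5 of the piRNA pathway fell by 1.48 ± 0.11 (adjusted p = 1.46e-07), and Tdrd1, the member that passed through WT libraries alone, differed by -2.31.

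Of 28 listed genes of the 2-cell-like state, a transient ESC state with transcripts of the cleavage embryo, 17 were in the table and 9 tested. Of these 9, 8 were higher, against 30.3% of all genes. All 8 passed the filter through the KO libraries alone. Of all 457 tested genes of that kind 374 were higher, so the filter favoured that call, and no test is given for these 8. Zscan4d was at 3.27, 3.06, 3.68 and 3.28 in Dicer/Dnmt1 KO and 2.72 to 3.35 in Dnmt1 KO, and Zscan4f was at 3.13, 2.81, 3.34 and 3.25 with 1 to 7 reads in WT. Dux, an activator of that state, was not tested and had 0 to 5 reads in the KO libraries and 0 to 1 in WT. Eif1a, which passed through both groups, fell by 0.49 ± 0.13 (adjusted p = 0.00462). The summed level of the 17 genes in the table was 130 to 160 RPM in Dicer/Dnmt1 KO. This lay within the WT range of 113 to 195 RPM, and Dnmt1 KO was at 184 to 203 RPM.

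Of 27 genes in the table from the X-linked Xlr, Pnma and Rhox families, which are known to be silenced by promoter methylation, 6 were tested. All 6 were higher, against 30.3% of all genes. Of the 6, 4 passed the filter through the KO libraries alone, and of all 457 tested genes of that kind 374 were higher. The other 2 were homeobox genes of the Rhox cluster. Rhox6 was at 4.26, 4.09, 4.72 and 4.78 in Dicer/Dnmt1 KO, 0.12 to 1.39 in WT (median 0.78) and 3.24 to 3.77 in Dnmt1 KO, a rise of 3.68 ± 0.24 (adjusted p = 3.6e-08). Rhox9 was at 3.72, 3.62, 4.16 and 3.996 in Dicer/Dnmt1 KO and -0.85 to 0.63 in WT (median 0.06), a rise of 3.90 ± 0.23 (adjusted p = 1.42e-08). The summed level of the 27 genes was 45.5 to 63.5 RPM in Dicer/Dnmt1 KO, 2.13 to 6.31 RPM in WT and 43.3 to 51.0 RPM in Dnmt1 KO, and reads of the Xlr3 copies are uncertain as to copy. On the X chromosome as a whole, 14.3% of 449 tested genes were at least 2-fold higher and 5.57% at least 2-fold lower, against 9.04% and 3.33% of all genes, while 30.5% were higher and 32.7% lower at any size.

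Some markers of each lineage changed, where 30.3% of all genes were higher and 29.7% lower. Of 15 tested primitive endoderm markers 9 were higher and 1 lower, with 2 of the 15 passing the filter through the KO libraries alone and 1 through WT libraries alone. The rises were led by the basement membrane collagens Col4a2 (1.35 ± 0.14, adjusted p = 2.83e-06) and Col4a1 (1.24 ± 0.16, adjusted p = 2.19e-05) and the receptor gene Pdgfra (1.24 ± 0.27, adjusted p = 0.00138). Sox17, which passed through the KO libraries alone, differed by 1.46, the endocytic receptor gene Lrp2 fell by 1.23 ± 0.27 (adjusted p = 0.00156, with a change of -1.90 once the length trend was removed), Gata4 changed by -0.18 ± 0.23 (adjusted p = 0.521), and Ttr and Afp had at most 3 reads in any library. Of 10 tested trophoblast markers, 2 of them tested through the KO libraries alone, 5 were higher and 1 lower, with Hand1 at 5 to 17 reads in WT and 47 to 83 in the KO libraries and the keratin gene Krt19 falling by 1.07 ± 0.24 (adjusted p = 0.00146).

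Of 8 tested neural markers 5 were higher and 2 lower, beside 30.3% and 29.7% of all genes, with changes from -0.73 to 2.30. The summed level of the 17 listed markers in the table was 90.7 to 109 RPM in Dicer/Dnmt1 KO. This lay within the WT range of 72.0 to 125 RPM, and Dnmt1 KO was at 65.4 to 73.9 RPM. Gad1, which makes the transmitter GABA, was at 2.81, 2.87, 3.10 and 3.07 in Dicer/Dnmt1 KO, 0.38 to 0.998 in WT (median 0.67) and 0.07 to 1.18 in Dnmt1 KO, a rise of 2.30 ± 0.13 (adjusted p = 1.3e-08). The KO libraries lay above every WT and every Dnmt1 KO library. The homeobox gene En2 rose by 1.47 ± 0.17 (adjusted p = 7.13e-06) and the tubulin gene Tubb3 by 1.14 ± 0.12 (adjusted p = 4.53e-06). Of 18 mesoderm and mesendoderm markers 5 could be tested, of which 2 were higher and 2 lower. Of the 5, 1 passed the filter through the KO libraries alone and 1 through WT libraries alone.

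Most glycolysis genes were downregulated. Of 25 genes, 21 were lower in Dicer/Dnmt1 KO, against 29.7% of all genes, and 2 were higher, with a median change of -0.75. In 17 of the 25 every KO library was below every WT library, against 19.1% of all genes. The summed level of the 25 genes was 3827 to 4255 RPM in Dicer/Dnmt1 KO, 6479 to 8521 RPM in WT and 4922 to 5805 RPM in Dnmt1 KO. Aldoc, the aldolase C gene, was at 1.80, 2.19, 2.22 and 1.92 in Dicer/Dnmt1 KO, 3.52 to 4.17 in WT (median 3.93) and 1.68 to 2.49 in Dnmt1 KO, and fell by 1.89 ± 0.12 (adjusted p = 2.68e-08). Pgk1, an X-linked phosphoglycerate kinase, was at 7.34, 7.38, 7.78 and 7.83 in Dicer/Dnmt1 KO, 8.32 to 9.43 in WT (median 9.04) and 8.09 to 8.50 in Dnmt1 KO, and fell by 1.42 ± 0.18 (adjusted p = 1.56e-05).

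Falls were found at several steps of the pathway. The glucose transporter genes Slc2a3 and Slc2a1 fell by 1.08 ± 0.09 (adjusted p = 4.41e-07) and 0.95 ± 0.10 (adjusted p = 2.03e-06), the pyruvate kinase gene Pkm2 by 1.000 ± 0.12 (adjusted p = 1.28e-05), and the lactate dehydrogenase gene Ldha by 0.97 ± 0.14 (adjusted p = 5.08e-05). The 2 genes that rose were the enolase gene Eno3 (1.25 ± 0.14, adjusted p = 4.5e-06) and Pfkfb4 (0.58 ± 0.14, adjusted p = 0.00241). The hexokinase genes Hk1 (0.29) and Hk2 (0.09) did not pass. The median of the list was -0.76 with the length trend removed.

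Of 24 tested p53 targets, 11 were higher and 8 lower, beside 30.3% and 29.7% of all genes (median 0.17). Besides Cdkn1a and Ei24, the stress response gene Sesn2 rose by 0.89 ± 0.15 (adjusted p = 0.000172), and the growth arrest gene Gadd45g, which passed the filter through the KO libraries alone, differed by 1.60. The proapoptotic genes Bbc3 (PUMA) and Pmaip1 (NOXA) fell by 0.68 ± 0.14 (adjusted p = 0.000736) and 0.58 ± 0.09 (adjusted p = 0.000102). The p53 gene Trp53 changed by 0.38 ± 0.11 (adjusted p = 0.0078, and 0.0845 with A and B averaged).

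Genes that sense double-stranded RNA and respond to interferon did not move in 1 direction. Of 21 genes, 9 were higher and 6 lower, beside 30.3% and 29.7% of all genes, with a median of 0.01. Of the 21, 1 passed the filter through the KO libraries alone and 1 through WT libraries alone. Of the 6 tested sensors and adaptors 4 were higher and none lower. Tmem173 (STING), the adaptor of cytosolic DNA sensing, is 1 of the 4 and passed the filter through the KO libraries alone, with 8 to 48 reads in WT and 73 to 125 in the KO libraries. Ddx58 (RIG-I) rose by 0.61 ± 0.07 (adjusted p = 4.36e-06). The interferon response factor gene Irf9 rose by 0.97 ± 0.08 (adjusted p = 2.94e-07), whereas the interferon-induced genes Oasl2 and Bst2 fell by 1.34 ± 0.29 (adjusted p = 0.00127) and 0.82 ± 0.12 (adjusted p = 7.26e-05), the latter with a change of -0.38 once the length trend was removed.

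Markers of cells that the cultures could also hold were compared across the same libraries. Of 18 feeder fibroblast markers 13 were tested, 1 of them through the KO libraries alone. Of the 13, 10 were higher and 1 lower in Dicer/Dnmt1 KO, beside 30.3% and 29.7% of all genes. The summed level of the listed markers was 127 to 212 RPM in Dicer/Dnmt1 KO, 69.5 to 110 RPM in WT and 139 to 154 RPM in Dnmt1 KO. Col1a1, the fibrillar collagen most abundant in fibroblasts, was at 4.92, 5.06, 4.19 and 3.99 in Dicer/Dnmt1 KO and 1.64 to 3.90 in WT (median 2.86), while the fibroblast genes Lum and Dpt had 0 to 3 reads in every library and Mmp2 fell by 1.19 ± 0.14 (adjusted p = 9.66e-06). The collagen genes above moved with these markers, whose part in those results was not tested.

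Y-linked genes separated the groups. The 17 of them in the table summed to 77.1 ± 11.8 RPM (SD, n = 4) in Dicer/Dnmt1 KO and 8.09 ± 3.81 RPM (SD, n = 8) in WT (exact two-sided permutation p = 0.00404, the smallest possible). Ddx3y, an RNA helicase gene, was at 2.99, 2.86, 3.32 and 3.26 log2 RPM in the KO libraries and had 0 to 24 reads in WT. All 4 listed Y-linked genes that were tested were higher, against 30.3% of all genes. All 4 passed the filter through the KO libraries alone. Of all 457 tested genes of that kind 374 were higher, so the filter favoured that call. The summed level of the 9 listed genes was 19.03 to 25.8 RPM in Dicer/Dnmt1 KO, 0.49 to 1.64 RPM in WT and 23.7 to 28.6 RPM in Dnmt1 KO. A difference between cell lines and the effect of the deletions cannot be told apart for any gene described here.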

How the data were processed

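Total RNA was depleted of ribosomal RNA and sequenced as stranded paired-end libraries. Per the submitters' processing notes, reads were trimmed with Trim Galore 0.3.5 and aligned with TopHat2 2.0.11, and the study's methods give NCBIM37 as the build and discard reads of low mapping quality. The authors deposited log2 RPM per gene made in SeqMonk, in which a gene without reads is written as if it had 0.9 read. Values were whole reads for 100% of genes (within 0.1 read, up to 1000 reads), so depth was recovered. Whether the counting used strand is not given in the sources used here. A further 35 columns of values in the table match none of the samples and were not used.

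Genes above 0 log2 RPM in at least 4 of 12 libraries were fitted with limma 3.58.1 (R 4.3.3; trended empirical Bayes) with Benjamini-Hochberg adjustment over 12715 genes, at 0.05. The design took all 12 libraries of both genotypes without covariates. The alternatives were A and B averaged, 1 letter alone, an estimated correlation between A and B, replicate blocks, fewer WT libraries, other scalings and filters, a pseudocount, voom on whole reads, a 2-fold minimum, and a trend over transcript length (lowess, span 0.3) removed from each library. Genes named were Dnmt1, Dicer1, the 10 largest rises and falls with a mean of at least 1 log2 RPM in the higher group, calls in both fits and no overlap between groups, up to 4 called members of each list, and the miRNA and DNA methylation lists in full. Other members were named after their values were seen. Single list members that this rule takes in are in the counts but not reported here by name. The comparison, its lists and its members were chosen with earlier results of these data known. Promoters matched 10030 tested genes (78.9%), too few for a promoter check, which is void. The smallest p of an exact permutation test over libraries was 0.00404. Seed matches were counted in the 3′ UTR of 1 transcript per gene of the NCBIM37 annotation. Figures were drawn with matplotlib 3.10.9.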

Additional observations from a re-analysis of the deposited data

Results flagged for a closer look

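Of 280 groups of library values checked for a single value far from the rest, 8 held one, and chance gives about 1 in 20 groups. In Dicer/Dnmt1 KO these were Zscan4-ps2 in library 2A (1.95 log2 RPM), Zscan4b in 1B (0.71), Mbd2 in 2B (4.24), Tcl1 in 1A (3.32) and Wnt3 in 1A (-0.12). In WT they were Dub1a in 4B (-3.48) and Zscan4e in 4A (-3.94), both from a few reads, and Aldoc in 1A (3.52), the lowest WT value of that gene.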

How the results depend on the processing

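The count of changed genes was 4540 (2444 higher, 2096 lower) with A and B averaged, 3597 (2069 and 1528) with the A libraries alone, 4158 (2187 and 1971) with the B libraries alone, and 1572 (1149 and 423) with a 2-fold minimum, against 7623 (3850 and 3773). The other alternatives gave between 5275 changed genes (estimated correlation between A and B) and 8832 (no filter, 21067 genes tested), with 7614 by voom on the recovered reads. Leaving out 1 library at a time gave 6643 to 8055 changed genes, 3337 to 4106 higher and 3281 to 3949 lower, Dnmt1 at -2.70 to -2.40 and Dicer1 at -1.50 to -1.33. Of 26 lists, 18 had a median above that of all genes, 18 to 20 with 1 library left out, and 17 (no filter) to 22 (quantile normalization) over the other alternatives. The median of single lists moved by more than the spread between libraries for 10 of the 26 against WT 3 and 4 only, 8 each with the length trend removed and with quantile normalization, and 7 each against WT 1 and 2 only, with either replicate block and with the stricter filter. With the length trend removed, the seed differences fell to 0.10, 0.14, 0.12 and 0.069, and the difference in median between transcripts over 8 kb and under 1 kb went from 0.96 to -0.010. Under the same treatment the changes reversed to -0.078 for Eif2c3, -0.014 for Tnrc6c, -0.39 for Cnot1, -0.11 for Dnmt3a, -0.12 for Tet1 and -0.35 for Tet2. Cnot1 was also at -0.24 against WT 1 and 2 only. The cause of these shifts was not tested.

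Numbers 1 and 2 occur in both groups, but same-labelled libraries correlated at 0.36, -0.002, 0.27 and 0.26 in their deviations from the group means, so the labels are taken as sharing only a number. Each KO library correlated best with a WT library of its own number, a hint from the data and not the design. A fit with the replicate number as a block gave 8286 changed genes, Dnmt1 at -3.02, Dicer1 at -1.66 and Cnot1 at -0.24, and a block for number and letter gave 7608. Depth limits genes with 0 to 9 reads in 1 group, for which 3 reads correspond to 0.06 to 0.10 RPM.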

Other observations

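Hosts and silencers of small RNA and repeat control were measured in the same fit, in which 30.3% of all genes were higher and 29.7% lower. Of 10 tested host transcripts of miRNAs, 6 were higher and 2 lower in Dicer/Dnmt1 KO. Of the 10, 2 passed the filter through the KO libraries alone and 1 through WT libraries alone. Mirg, Meg3, Rian and H19, described above, had the largest differences, and Sfmbt2, whose intron holds a large rodent miRNA cluster, rose by 0.84 ± 0.19 (limma adjusted p = 0.00174), or 0.42 with the length trend removed. Mir17hg, the primary transcript of the miR-17 to miR-92 cluster, fell by 0.56 ± 0.16 (adjusted p = 0.00946, and 0.0836 with A and B averaged), and Mcm7, which holds the miR-106b and miR-25 cluster in an intron, changed by -0.15 ± 0.07 (adjusted p = 0.106). Of 23 genes of H3K9 methylation and retroelement silencing, 6 were higher and 7 lower (median -0.12): Atf7ip, a partner of the methyltransferase SETDB1, rose by 1.05 ± 0.21 (adjusted p = 0.000627), and the heterochromatin protein genes Cbx3 and Cbx1 fell by 0.68 ± 0.12 (adjusted p = 0.000249) and 0.66 ± 0.06 (adjusted p = 1.16e-06).

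Epithelial and mesenchymal genes gave mixed counts, where 30.3% of all genes were higher and 29.7% lower. Of 18 epithelial junction genes, 3 were higher and 4 lower (median -0.03). The polarity gene Crb3 fell by 1.54 ± 0.19 (adjusted p = 1.29e-05), Cldn3 rose by 0.90 ± 0.19 (adjusted p = 0.000992), and the E-cadherin gene Cdh1 changed by 0.22 ± 0.21 (adjusted p = 0.38). Of 20 mesenchyme and smooth muscle genes, 6 were higher and 4 lower (median 0.24). The E-cadherin repressor genes Zeb2 and Zeb1 rose by 1.62 ± 0.21 (adjusted p = 1.65e-05) and 1.33 ± 0.15 (adjusted p = 6.61e-06), and the smooth muscle actin gene Acta2 rose by 1.33 ± 0.19 (adjusted p = 4.87e-05) while the calponin gene Cnn1 fell by 1.03 ± 0.23 (adjusted p = 0.00158). Of 10 ESC markers, 1 was higher and 3 lower. Of 186 tested long intergenic noncoding RNAs, 12.4% were at least 2-fold lower and 11.3% at least 2-fold higher, beside 3.33% and 9.04% of all tested genes.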
